A study of Rattus norvegicus with 8 samples.

Results

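Septin9 and Marchf11 are 2 of the 246 genes in the study's list of promoter regions that were more methylated in urothelial carcinomas (UCs) than in control bladders of rats. They are the only entries of that list whose symbols a spreadsheet had turned into dates, and they were recovered from the gene descriptions beside them. A minimum of 3 CpGs with 3 or more reads each was met by all samples in 202 of the 246 regions, and both genes are among these. The list was made from the same UCs and controls, so the higher level of both regions in UCs was fixed by the choice, and their levels are given as a description with no test. The Septin9 region lies at chr10:106240855-106240948 and the Marchf11 region at chr2:78825096-78825135 of the rat build rn6. With all CpGs up to 1 kb on either side, 73 CpGs at Septin9 and 102 at Marchf11 had calls in at least 1 sample, of 3403609 CpGs in all.

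Septin 9 is a GTP-binding protein of the septin family, whose members assemble into filaments beneath the plasma membrane and take part in cell division. Marchf11 encodes a membrane-associated RING-CH-type E3 ubiquitin ligase, an enzyme that tags other membrane proteins for sorting or breakdown. Cytosines of CpG-rich promoters are mostly unmethylated in normal tissue, and dense methylation there commonly goes with a silent promoter. Methylated SEPT9 DNA in blood plasma is used in people as a marker of colorectal cancer, and methylation of the human MARCHF11 promoter has been described in several carcinomas.

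The 8 samples were DNA of F344/DuCrj rats, male by the study's methods, that were 10 weeks old when exposure began. For 104 weeks 3 controls drank water with 0 ppm and the animals with UCs drank water with 200 ppm of dimethylarsinic acid (DMA), an organic arsenic compound that causes bladder tumours in rats. The labels call the control tissue urothelium, whereas the methods call it bladder tissue. Whether the mix of cell types differed between the groups was not tested. No exposed tissue without a tumour was among the samples, so exposure and tumour cannot be told apart. The 5 UCs are not stated to come from 5 animals, so p-values measure the spread between these samples only. Methylation was read by reduced representation bisulfite sequencing (RRBS), in which DNA is cut at CCGG and TCGA and treated with bisulfite, which turns unmethylated cytosines into bases read as T. A methylation level is the share of C among the C and T calls of a region's CpGs. In bulk tissue, a larger share of cells with methylated copies and more methylation per cell cannot be told apart.

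Each sample had 2526077 to 2821347 CpGs, 51434938 to 73836223 calls and a median of 14 to 18 reads per CpG. Across 258144 tiles of 200 bp, UC 1 and UC 2 differed by a mean of 3.83 points and UC 4 and UC 5 by 4.01 points, less than the pairs of controls at 4.55 to 4.69 points. The other 8 pairs of UCs differed by 8.22 to 8.96 points. UC 3 was a mean of 7.93 points from the controls and the other UCs were 11.7 to 12.01 points from them. Results below were therefore also computed without UC 3 and with UC 1 joined to UC 2 and UC 4 to UC 5.

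The sequences shown are RefSeq promoter windows of both genes, 250 bases before to 50 after the start, because they hold the starts from which distances are counted and the CpGs of the upstream Septin9 start tested below. The listed Septin9 region ends just before the window of the nearer start, and its own sequence is not shown. They are from build GRCr8, all on the plus strand, and were placed on the rn6 CpGs by the spacing of their CGs. The capitals mark the CGs that had calls at the matching rn6 position. RefSeq gives Septin9 more than 1 start, and 2 of these windows could be placed.
Septin9, start beside the region, chr10:102976046-102976345: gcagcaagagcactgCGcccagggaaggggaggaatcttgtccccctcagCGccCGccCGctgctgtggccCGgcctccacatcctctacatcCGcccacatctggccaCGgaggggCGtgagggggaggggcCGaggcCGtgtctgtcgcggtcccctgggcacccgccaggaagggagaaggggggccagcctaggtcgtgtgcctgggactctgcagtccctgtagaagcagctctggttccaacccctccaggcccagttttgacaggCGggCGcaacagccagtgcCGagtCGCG
Septin9, upstream start, chr10:102943156-102943455: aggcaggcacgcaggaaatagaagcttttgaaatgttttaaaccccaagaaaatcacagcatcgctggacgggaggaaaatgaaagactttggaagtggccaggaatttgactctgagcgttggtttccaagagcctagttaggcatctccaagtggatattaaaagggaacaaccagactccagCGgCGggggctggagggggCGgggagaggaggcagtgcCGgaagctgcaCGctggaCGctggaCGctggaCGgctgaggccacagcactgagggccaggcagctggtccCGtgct
Marchf11, chr2:78628611-78628910: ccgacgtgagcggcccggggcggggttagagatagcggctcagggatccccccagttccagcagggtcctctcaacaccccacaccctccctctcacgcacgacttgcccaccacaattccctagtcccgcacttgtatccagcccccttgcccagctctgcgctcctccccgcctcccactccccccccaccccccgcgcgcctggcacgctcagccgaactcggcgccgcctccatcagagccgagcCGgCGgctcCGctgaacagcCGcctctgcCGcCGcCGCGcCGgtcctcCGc
The Septin9 windows hold 19 and 13 CGs and the Marchf11 window holds 30, against a median of 7 in 33469 RefSeq windows. CCGG, one of the cutting sites, was found 1 time in each Septin9 window and 3 times in that of Marchf11, and 51.4% of all windows hold it. TCGA was found in none of the 3 windows and is in 23.0% of all windows. Both motifs read the same on either strand and do not overlap each other. On rn6 the window beside the Septin9 region runs from 106240951 to 106241250 with its start at 106241201, and 15 of its 19 CGs had calls. The upstream Septin9 window runs from 106192265 to 106192564 with its start at 106192515, and 9 of its 13 CGs had calls. The Marchf11 window runs from 78824847 to 78825146 with its start at 78825097, and 10 of its 30 CGs had calls, all of them at or near the start. The Septin9 region thus lies before the nearer start and the Marchf11 region runs across the start.

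In the Septin9 region, 7 CpGs were read in all 8 samples, on 319 to 555 calls per sample. The controls had 1 methylated call of 535, 2 of 430 and 4 of 544, which are levels of 0.187%, 0.465% and 0.735%. The UC levels were 85.2%, 85.1%, 48.6%, 66.6% and 60.9% in UC 1 to UC 5. All UCs were far above all controls, UC 1 and UC 2 were highest, and UC 3 was lowest. The Wilson interval of UC 3, from 43.2% to 54.1%, did not reach that of UC 5, from 55.9% to 65.6%, which overlapped that of UC 4. These intervals treat all calls as independent, although CpGs of the region share reads, and are too narrow. UC 3 is therefore not shown to differ from UC 5. Group means were 0.462% ± 0.274 (SD, n = 3) in controls and 69.3% ± 15.9 (SD, n = 5) in UCs, 68.8 points apart. Among the 202 regions this difference ranked 2, after Mmp23 at 71.0 points and before Aaas at 62.8 points, and the median of the list was 17.6 points. The control level of Septin9 was the sixth lowest of the list.

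Each of the 7 CpGs of the Septin9 region was more methylated in every UC than in every control. Across the genome 8.05% of 2052737 CpGs with calls in all samples had every UC above every control, and since the region was chosen on this contrast nothing is read from the comparison. No control exceeded 2.94% at any of these CpGs. The UC mean was 64.7% at position 106240855, 68.1% at 106240868, 71.3% at 106240904, 73.5% at 106240906, 74.0% at 106240915, 60.3% at 106240921 and 75.3% at 106240934. Of the 45 flanking CpGs with calls in all samples, 41 had every UC above every control, and their UC means ranged from 1.82% to 79.1%. The flanks had levels of 1.22%, 1.99% and 1.52% in the controls and 66.0%, 69.8%, 37.4%, 48.2% and 43.5% in UC 1 to UC 5. Their means were 1.58% ± 0.385 (SD, n = 3) and 53.0% ± 14.2 (SD, n = 5). Outside the region, the UC mean was 51.3% over the 4 CpGs of the upstream flank, 57.2% in the 200 bp before the nearer start and 37.4% in the first 200 bp after it. It was 64.7%, 64.8% and 62.6% in the following 3 stretches of that length.

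**Figure D1:**
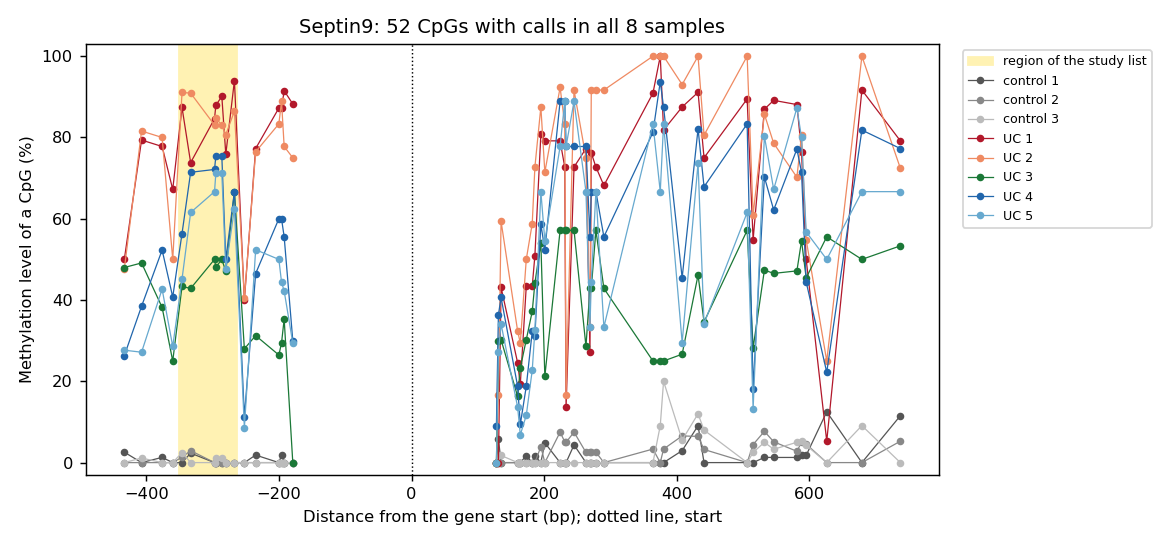
Methylation level in percent (vertical axis) of the 52 CpGs at Septin9 with calls in all 8 samples, by distance in bp from the nearer gene start (horizontal axis), with one colour per sample, lines broken over gaps of more than 100 bp and the region of the study's list shaded. The controls stay near the lower edge (highest value 20%), whereas the UCs are high on both sides of the start and dip together at some CpGs.

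Single CpGs departed from this level, and the following ones were chosen after their values were seen. At position 106240949, which is 1 bp past the region, the UC levels were 40%, 40.4%, 28%, 11.3% and 8.57% in UC 1 to UC 5, on at least 50 reads. Its neighbour inside the region had a UC mean of 75.3%. Whether a cutting site lies at this CpG was not tested, since the sequence of the region is not shown. At position 106241434, UC 1 and UC 2 had 13.6% and 16.7% and UC 3 to UC 5 had 57.1%, 77.8% and 77.8%. This reversed the order of the UCs seen in the region, on as few as 7 reads per sample. UC 1 and UC 2 were both above UC 4 and UC 5 at 38 of the 52 CpGs, and both below at 3. UC 3 was the lowest UC at 34 of the 52.

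In the Marchf11 region, 8 CpGs were read in all samples, on 167 to 489 calls. The levels were 1.01%, 3.59% and 1.43% in the controls. They were 25.7%, 27.4%, 17.3%, 18.4% and 16.7% in UC 1 to UC 5. All UCs were again above all controls, but UC 3 lay between UC 4 and UC 5, and the intervals of these 3 UCs overlap. Group means were 2.01% ± 1.39 (SD, n = 3) and 21.1% ± 5.04 (SD, n = 5), which are 19.1 points apart. This difference ranked 94 of 202, just below Mpped1 at 19.2 points and just above Lrrc24 at 19.1 points. It is close to the median of the list, in contrast to that of Septin9.

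At 5 of the 8 CpGs of the Marchf11 region every UC was above every control. The share over all CpGs was 8.05%, and nothing is read from the comparison, since this region too was chosen on this contrast. The UC means were 13.8% at position 78825096, 6.01% at 78825099, 26.2% at 78825105, 14.4% at 78825116, 34.7% at 78825125, 30.7% at 78825128, 25.5% at 78825131 and 11.6% at 78825133. Neighbouring CpGs thus differed several-fold in their UC means. The level at 78825128 was nearly the same in all UCs, from 27.3% to 32.1%, whereas that at 78825125 ran from 15.6% in UC 5 to 62.9% in UC 2. Both rest on at least 23 reads per sample.

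The Marchf11 flanks, with 88 CpGs read in all samples, were at 4.80%, 1.42% and 1.85% in the controls and at 43.3%, 43.4%, 14%, 19.7% and 19.2% in UC 1 to UC 5. Their means were 2.69% ± 1.84 (SD, n = 3) and 27.9% ± 14.3 (SD, n = 5). UC 1 and UC 2 stood well above the other UCs here, more so than in the region itself. At 52 of the 88 CpGs every UC was above every control, and the UC means ranged from 1.29% to 71.3%. The UC mean was 12.7% in the 200 bp that end 201 bp before the start. After the start, where the first stretch includes most of the region, it was 23.4%, 26.5%, 33.1% and 33.2% in 4 successive stretches of 200 bp. The stretch from 400 to 599 bp after the start held 28 CpGs, with levels of 52.1%, 56.1%, 12.4%, 25.5% and 19.2% in UC 1 to UC 5. The listed region is therefore not the part of this promoter with the highest UC level.

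**Figure D2:**
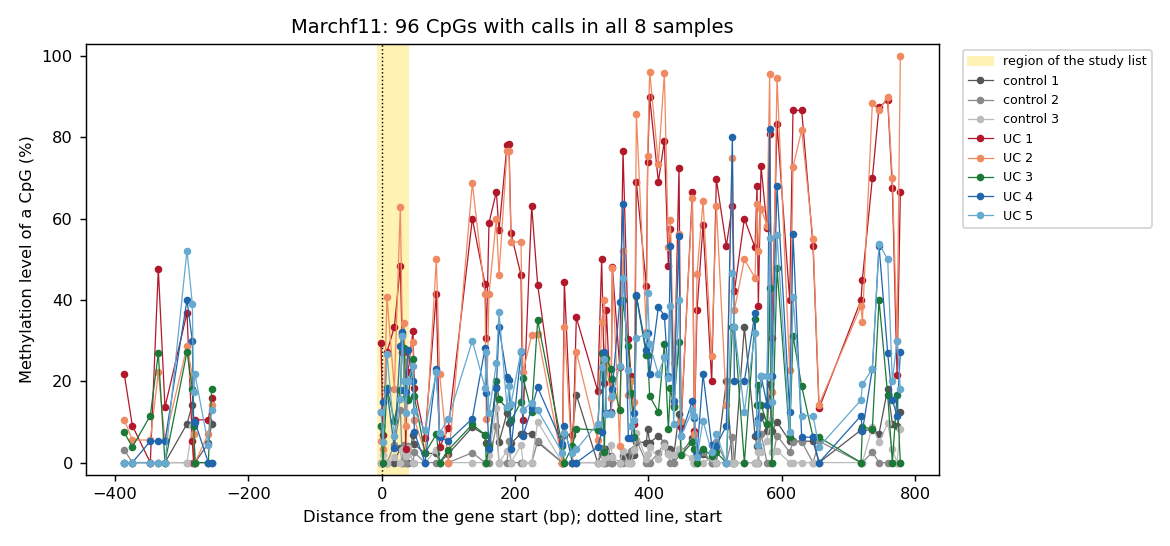
Methylation level in percent (vertical axis) of the 96 CpGs at Marchf11 with calls in all 8 samples, by distance in bp from the gene start (horizontal axis), with one colour per sample, lines broken over gaps of more than 100 bp and the region of the study's list shaded. UC 1 and UC 2 rise above UC 3, UC 4 and UC 5 at most CpGs after the start, with UC means from 1.29% to 71.3% across the CpGs outside the region.

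By correlation and by mean difference over CpGs, UC 1 was most like UC 2 and UC 4 most like UC 5 at both genes. By mean difference at Marchf11, UC 3 was also close to UC 4 and UC 5. These values are a description over CpGs of at least 10 reads in every UC, which share reads and libraries. Over 34 such CpGs at Septin9, UC 1 and UC 2 differed by a mean of 7.46 points (Pearson's r = 0.894) and UC 4 and UC 5 by 8.40 points (r = 0.912). The other 8 pairs differed by 15.5 to 32.9 points (r from 0.492 to 0.845). Over 84 CpGs at Marchf11 the values were 9.31 points (r = 0.907) for UC 1 and UC 2, 6.62 points (r = 0.860) for UC 4 and UC 5, and 8.82 to 27.5 points (r from 0.417 to 0.650) for the others, of which UC 3 and UC 5 at 8.82 points were closer than UC 1 and UC 2. UC 1 and UC 2 were both above UC 4 and UC 5 at 66 of the 96 Marchf11 CpGs and both below at 7, and UC 3 was the lowest UC at 46.

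Measures outside the 1-kb flanks were not used in choosing the genes and were tested. They are not independent of that choice where higher methylation runs on from the flank, as it did downstream of Septin9. There the test partly repeats the contrast on which the region was chosen. From 1 to 10 kb on either side of the Septin9 region, the controls were at 30.1%, 29.6% and 29.5% and the UCs at 56.9%, 46.3%, 45.0%, 51.4% and 48.0%. No UC overlapped the controls. The means of 29.7% ± 0.360 (SD, n = 3) and 49.5% ± 4.76 (SD, n = 5) differed by 19.8 points (exact permutation test, p = 0.0179, the smallest possible, adjusted over both genes p = 0.0357). The call was kept when control 1 was left out and lost when any other sample was. Without any 1 control the unadjusted p of the exact permutation test was 0.0476, the smallest possible. The call was kept without control 1 only because the p of Marchf11, which enters the adjustment, was then equally low. With UC 1 joined to UC 2 and UC 4 to UC 5, the difference was 19.1 points (exact permutation p = 0.1, the smallest that 3 against 3 allow). The adjusted p of the exact permutation test was 0.0952 without control 2 or without control 3 and 0.0571 without any 1 UC, at differences of 18.0 to 20.9 points, although the unadjusted p was the smallest possible each time. With each CpG given equal weight, the difference was 12.7 points.

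This mean joins opposite changes on the 2 sides of the Septin9 region, which were not tested apart. Upstream, the levels were 65.7%, 68.8% and 68.2% in controls and 33.7%, 20.9%, 39.2%, 44.1% and 41.6% in UCs, so that every UC was lower. Downstream, within the gene by the nearer start, they were 14.8%, 12.2% and 13.7% in controls and 65.1%, 61.7%, 47.3%, 54.4% and 51.4% in UCs, so that every UC was higher. From 1 to 10 kb around the Marchf11 region the controls were at 80.5%, 75.9% and 75.9% and the UCs at 81.2%, 79.7%, 80.5%, 87.5% and 82.0%. UC 2 lay below control 1 there. The means of 77.4% ± 2.65 (SD, n = 3) and 82.2% ± 3.09 (SD, n = 5) were 4.78 points apart (exact permutation p = 0.0536, adjusted p = 0.0536), which did not pass the threshold. With each CpG given equal weight it was 2.27 points (exact permutation p = 0.357). Without control 1 the difference was 6.31 points (exact permutation p = 0.0476, the smallest that division allows).

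**Figure D3:**
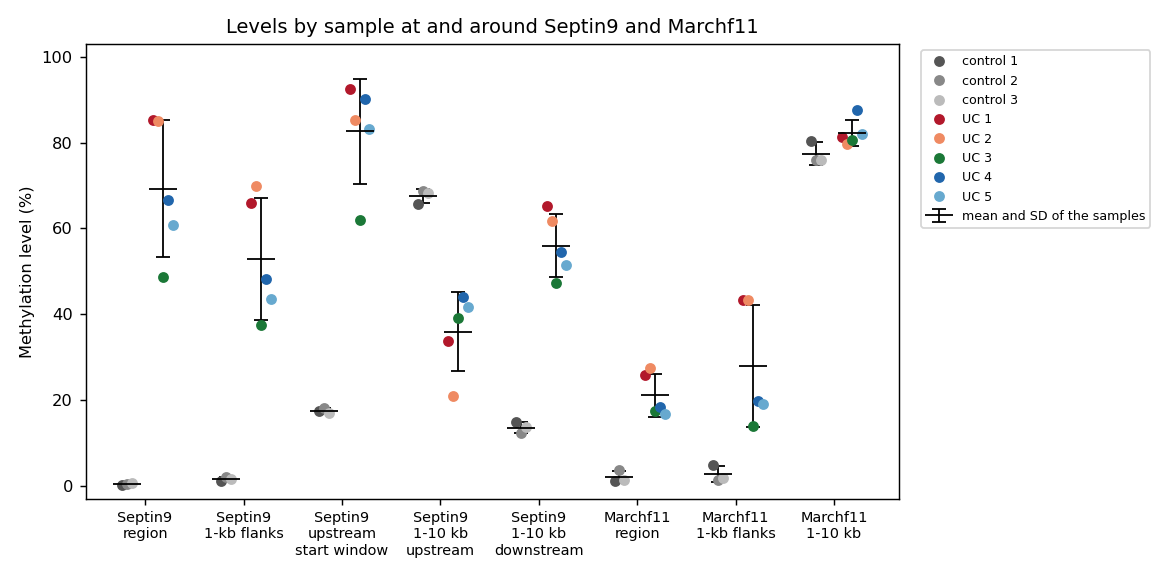
Methylation level in percent (vertical axis) in each sample for regions at and around Septin9 and Marchf11 (horizontal axis), with points for samples in one colour each, and bars for the group mean and SD (n = 3 controls, n = 5 UCs). Every UC is above every control in all sets but the 1 to 10 kb upstream of Septin9, where every UC is below, and the 1 to 10 kb around Marchf11, where the groups overlap.

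The upstream start of Septin9, placed on rn6 at 48255 bp or more before the listed region, was measured on its own. Its place was found by CpG spacing alone, with 9 CpGs matched and 4 at the next best place. By the coordinates given above, both Septin9 windows lie closer together on GRCr8 than on rn6, and the reason was not tested. The distance on rn6 and the identity of this start rest on that placement. Its window was at 17.4%, 18.1% and 17.1% in the controls and at 92.5%, 85.4%, 61.9%, 90.2% and 83.1% in UC 1 to UC 5, on 147 to 334 calls. The groups did not overlap, and UC 3 was again the lowest UC. The means of 17.5% ± 0.516 (SD, n = 3) and 82.6% ± 12.2 (SD, n = 5) differed by 65.1 points. In the quasi-binomial model over 7960 placed promoter windows the adjusted p was 0.00343, and with limma on M values it was 0.000525. Of all windows 2.04% were called higher in UCs and 0.565% lower, and in 9.13% every UC was above every control. The call remained with each sample left out, with differences of 62.6 to 70.3 points, and with the similar UCs merged. The controls were not near 0 at this start, unlike at the nearer one, where their mean was 0.215% ± 0.372 (SD, n = 3) and that of the UCs was 56.5% ± 22.4 (SD, n = 5).

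Tiles of 200 bp lying over 1 kb and up to 50 kb from the Septin9 region were read from the fit over all 258144 tiles. Of 44 tested tiles, 8 (18.2%) were called higher in UCs and 5 (11.4%) lower, where 9.29% of all tiles were called higher and 7.15% lower. Every UC was above every control in 8 tiles and below in 9, against 15.4% and 10.0% of all tiles. The higher tiles at 1053, 1253 and 1453 bp downstream continue the flank of the chosen region. The counts of higher tiles are therefore not independent of the choice of the gene, and nothing is read from setting them against all tiles. All 5 lower tiles lay among the 16 upstream of the region, while 3 of the higher tiles lay upstream and 5 among the 28 downstream. Every UC was also below every control in 3 downstream tiles that were not called. Of these, the tile at 47053 bp had an adjusted p of 0.0127 in the quasi-binomial model but differed by only -6.03 points, within the 10-point limit. Only 1 of the 5 lower tiles kept its call with each sample left out. Nothing is read from the number of lower tiles or from their side. No tile from 20 to 50 kb downstream was called, of 19 tested. The 31 tiles not called had differences from -22.0 to 21.6 points.

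The higher tiles nearest to the region continued the flank without a gap. In the tile 1453 bp downstream the controls had 2.17%, 4.11% and 2.75% and the UCs 70.0%, 73.5%, 41.4%, 69.2% and 61.1%, a difference of 60.0 points (adjusted p = 0.00114 in the quasi-binomial model). The tiles at 1053 and 1253 bp differed by 51.9 and 43.5 points. Farther downstream, the tile at 18253 bp had 21.3%, 22.9% and 29.7% in controls and 91.2%, 92.6%, 71.9%, 89.2% and 89.7% in UCs, a difference of 62.3 points (adjusted p = 0.00156 in the same model). UC 3 was the lowest UC in both, though far above the controls. The tile at 6453 bp differed by 33.2 points (adjusted p = 0.0396), and lost its call when any sample other than UC 3 was left out, with adjusted p up to 0.201.

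Upstream of the Septin9 region, higher and lower tiles lay within a few kb of each other. The tile 31655 bp upstream had 31.6%, 27.1% and 24.2% in the controls and 90.7%, 88.8%, 62.3%, 85.6% and 87.2% in the UCs, and its neighbour at 31855 bp differed in the same direction by 48.1 points. About 1 kb nearer to the region, the tile at 30655 bp had 85.1%, 88.4% and 85.2% in the controls and 71.6%, 70.6%, 73.5%, 71.3% and 55.6% in the UCs, so that every UC was lower. The tile at 48255 bp upstream overlaps the window of the upstream start and is not a separate result. Among the tiles called lower, the lowest UC mean was at 19255 bp upstream, in the tile from 106221401 to 106221600. The controls were at 37.9%, 44.4% and 51.7% there. UC 4 was at 3.57%, and UC 1, UC 2, UC 3 and UC 5 had no methylated call of 49, 41, 27 and 33 calls, which allows levels of up to 6.12%, 7.32%, 11.1% and 9.09%. This difference was -44.0 points (adjusted p = 0.00156 in the quasi-binomial model), in 5 of 5 UCs.

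The tile closest to the region on the upstream side, at 1455 bp, had 75%, 73.6% and 69.2% in the controls and 9.32%, 4.63%, 25.6%, 48.2% and 42.3% in the UCs. UC 1 and UC 2, the highest UCs within the region, were the lowest here. The difference was -46.6 points (adjusted p = 0.0291 in the quasi-binomial model), and it lost its call when any 1 control was left out, with adjusted p up to 0.126. With each sample left out in turn, 7 of the 8 higher tiles and 1 of the 5 lower tiles, that at 19255 bp, kept their calls throughout. The tile at 30655 bp lost its call without control 2 (adjusted p = 0.0580). The tiles at 29655 and 15055 bp upstream each lost theirs in 5 of 8 cases: without any 1 control, and without UC 1 or UC 2 and without UC 4 or UC 5, respectively, with adjusted p up to 0.134 and 0.163.

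**Figure D4:**
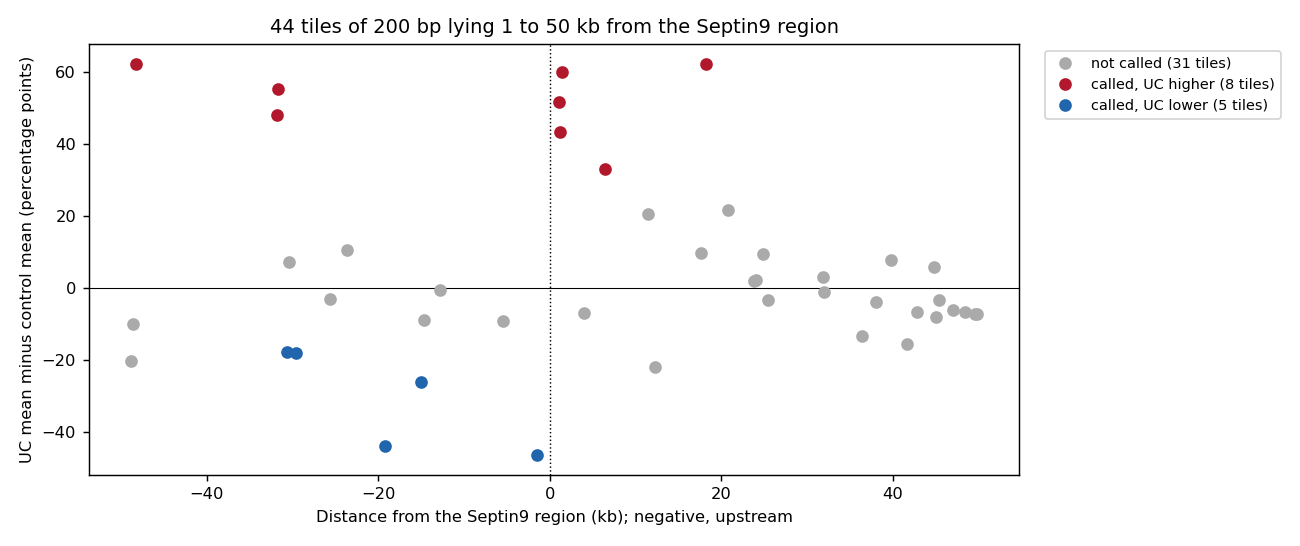
Difference of the UC mean and the control mean in percentage points (vertical axis) for 44 tiles of 200 bp, by distance in kb from the Septin9 region (horizontal axis), with colours for the call. The 5 tiles called lower all lie upstream, and the 8 tiles called higher lie on both sides and as far as 48255 bp from the region. In 3 downstream tiles that were not called, every UC was also below every control.

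Around the Marchf11 region the DNA was sparsely covered, with 3 tiles tested from 1 to 50 kb. None was called in either direction in the quasi-binomial model or with limma on M values, and 1 had an unadjusted p under 0.05. Their differences were -2.81, 4.77 and 4.73 points, at control means of 91.1%, 88.8% and 70.4%. No difference in depth between the groups passed the test at either gene. Of each 1000000 calls, 1236 ± 17.7 (SD, n = 3) in controls and 1240 ± 46.9 (SD, n = 5) in UCs fell in the 1 Mb around Septin9 (exact permutation p = 0.929). Around Marchf11 it was 112 ± 10.4 (SD, n = 3) and 106 ± 3.59 (SD, n = 5) (exact permutation p = 0.286).

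The other septin genes, which encode the partners with which septin 9 forms filaments, and the other MARCH genes, which encode related ubiquitin ligases, were read from the promoter windows. Of 22 other genes of both families in RefSeq, 8 had a placed window that could be tested. None was called in either direction, by the quasi-binomial model or by limma on M values, against 2.04% higher and 0.565% lower of all windows. None had an unadjusted p under 0.05. At such low shares, 8 windows would be likely to hold no call, so nothing is read from this about the families. The highest level of any sample in these 8 windows was 3.80%. Septin4 had the largest difference, with no methylated call in control 1, 0.602% and 1.10% in the other controls and 2.68%, 3.19%, 3.80% and 1.65% in UC 1 to UC 4. UC 5 had no methylated call either, so that the groups overlap. The counts of 0 allow levels of up to 2.11% in control 1 and 2.13% in UC 5. The windows of Septin7, Septin8, Septin10, Septin11, Marchf2, Marchf5 and Marchf8 had UC means of 0.219% to 0.632%. The median difference of the 8 windows was 0.0654 points, against 0.0657 points over all 7960 windows.

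**Figure D5:**
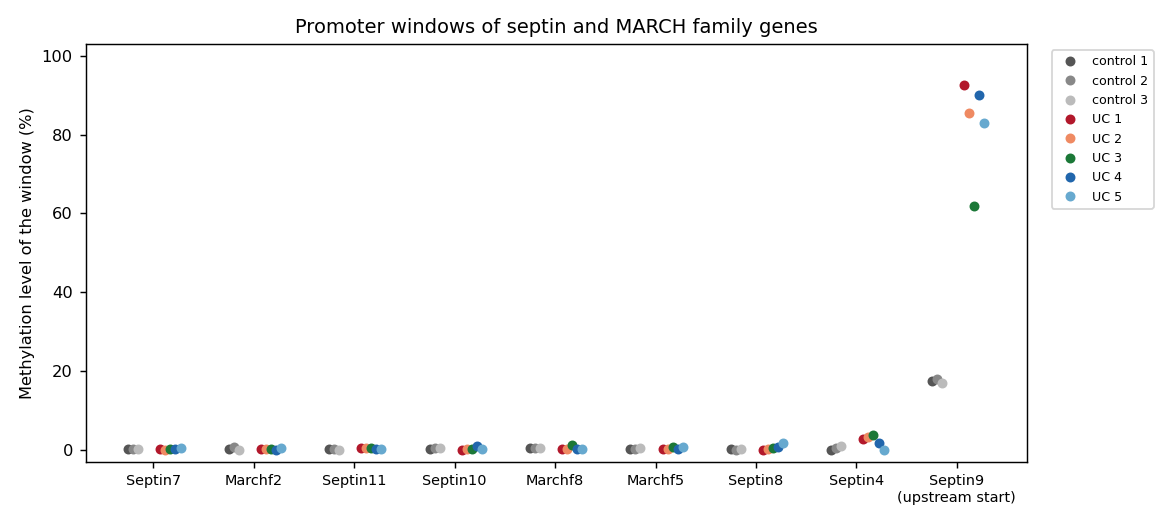
Methylation level in percent (vertical axis) in each sample of the promoter windows of 8 other septin and MARCH family genes and of the upstream start of Septin9 (horizontal axis), with points for samples in one colour each. The 8 windows stay at or below 3.80% in every sample, while the upstream Septin9 window is at 17.1% to 18.1% in controls and 61.9% to 92.5% in UCs. The remaining genes of both families had no window that could be tested.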

How the data were processed

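Genomic DNA of 3 control bladders and 5 UCs was digested with TaqI and MspI, bisulfite converted and sequenced. The authors trimmed the reads and mapped them to rn6 by RRBSMAP. Reads with several placements and copies sharing a barcode were discarded by them. HOMER is named in the submitters' processing notes. The deposited counts are C calls and all C and T calls of a CpG, summed over the strands. The deposited effective counts are expected counts, which the authors corrected by the opposite strand, and they served only as an alternative. The methylation level that the authors deposited as a fraction was within 0.00439 of the ratio of C calls to the effective count and was not used further.

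Levels are C calls over all calls, summed over CpGs of at least 3 reads. The 200-bp tiles needed at least 3 such CpGs in every sample, and 258144 were tested with a quasi-binomial model whose dispersion was moderated as in limma 3.58.1, with Benjamini-Hochberg adjustment over all tiles. Calls needed an adjusted p under 0.05 and group means more than 10 points apart. Single values were compared by two-sided exact permutation tests over 56 divisions, whose smallest p is 0.0179. Intervals are Wilson intervals at the 95% level. They cover counting error only and treat all calls as independent, which calls on the same read are not, so they are too narrow. Scripts ran in Python 3.11.15 and R 4.3.3, and the model was tested on simulated calls.

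An annotation of rn6 was not used here. In its place, RefSeq promoter windows of GRCr8, 300 bases long, were placed on rn6 where every CpG of the files in the window fell on a CG of the sequence and the best place was unique. Of 33469 windows, 18831 held at least 6 CGs, and 8860 were placed. A placement needed a score of at least 8, which is the number of matched CpGs less 1 multiplied by the log10 of positions per CG. Of 145 genes of the study's list that were placed, 142 lay within 1 kb of the start that list gives, and the median gap was 0.5 bp. This step was chosen after the data had been seen. The genes, the lists and the tests were chosen with earlier results of these data known. The CpGs named are all those of each region, while other CpGs and the tiles are named after their values were seen. Alternatives were a minimum of 10 reads, the mean of CpG levels, 10 calls in place of 3 CpGs, the effective count, limma on M values, no moderation, a replicate block, a difference over 20 points, 1-kb tiles, a reach of 20 kb, merging of similar UCs and each sample left out. Same-numbered controls and UCs deviated from their group means with correlations of 0.0149, -0.0133 and 0.0401 over the tiles, so the numbers were not taken as pairs.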

Additional observations from a re-analysis of the deposited data

Results flagged for a closer look

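In 7 of 32 measures with 5 UCs, 1 UC lay far from the others by Dixon's criterion, and chance alone would give about 1.6. The measures share the same UCs and some are neighbouring tiles, so 7 against 1.6 does not show an excess. All 7 are tiles near Septin9, and 4 of them concern UC 3. UC 3 was the lowest UC in the tile 48255 bp upstream at 58.0% (others 81.8% to 91.2%), at 31855 bp upstream at 64.6% (others 89.3% to 92.3%), at 31655 bp upstream at 62.3% (others 85.6% to 90.7%) and at 18253 bp downstream at 71.9% (others 89.2% to 92.6%). UC 5 was the lowest at 30655 bp upstream at 55.6% (others 70.6% to 73.5%) and at 29655 bp upstream at 39.1% (others 51.7% to 55.6%). UC 4 was the highest at 19255 bp upstream, at 3.57%, where the other UCs had no methylated call. Their calls allow levels of 6.12% to 11.1%, all above 3.57%, so that UC 4 is not shown to differ there.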

How the results depend on the processing

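Of 451 values recomputed under an alternative, 363 kept their direction and their side of the threshold, or stayed within 1.5 times a count. The differences at the Septin9 and Marchf11 regions and their flanks kept their direction under every alternative run, as did the call of the upstream Septin9 start. The 1 to 10 kb around Septin9, called on p adjusted over both genes, lost its call with the similar UCs merged (19.1 points, p of 0.1) and with each sample but control 1 left out, at 18.0 to 20.9 points. Those designs have few divisions, and the unadjusted p was at its smallest possible value in each. The call was kept without control 1 only because the p of Marchf11 was then equally low. Around Marchf11 the difference passed the threshold without control 1, and it ranged from 3.45 to 6.31 points with each sample left out. With the mean of the CpG levels these differences were 12.7 and 2.27 points. The share of calls around Septin9 changed sign in a 5-Mb window (-198 per 1000000 calls, exact permutation p = 0.446) and ranged from -13.6 to 15.2 with each sample left out, and that around Marchf11 ranged from -9.76 to 0.0818. All tiles called higher and lower numbered 14623 and 9970 with 10 reads per CpG, 38851 and 37328 with 10 calls and no minimum of CpGs, and 11528 and 10053 with UCs merged. Higher tiles numbered 15166 without moderation and 14900 at over 20 points. With each sample left out they ranged from 11310 to 32601 and from 9749 to 23310. With a replicate block they were 4699 and 3505, and 5 and 1 near Septin9, where labels share only a number and no sample pair is known. Near Septin9 there were 5 higher and 3 lower tiles up to 20 kb. Lower tiles there numbered 2 with UCs merged, 13 with 10 calls, 2 without moderation, 3 at over 20 points and 3 with 10 reads. With each sample left out, higher tiles there ranged from 7 to 9 and lower tiles from 1 to 7. Promoter windows called higher and lower were 37 and 12 with UCs merged, and ranged from 39 to 215 and from 14 to 63 with each sample left out. The cause of these changes was not tested, beyond the fewer samples or stricter limits that the settings impose. The planned promoter windows of rn6 were not run, since an rn6 annotation was not used here. Depth limits single CpGs, some of which rest on 3 reads.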
